A study of Mus musculus with 2 samples.

Results

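The genes described are 41 enzymes, transporters and regulatory subunits of glycolysis, gluconeogenesis, glycogen, fructose, pentose phosphate and galactose metabolism, chosen by name along these pathways. Liver RNA was measured on 2 Affymetrix mouse genome expression arrays, 1 hybridized with a pool from 3 FLS mice (Fatty Liver Shionogi, an inbred strain with spontaneous fatty liver, used as the NASH model) and 1 with a pool from 3 DS mice (an inbred strain used as the simple steatosis reference). Both strains were bred from outbred ddN mice, FLS from line C and DS from line A. All mice were 19 weeks of age and ate 1 standard pellet diet (CE-2), and the labels name no engineered allele and no treatment besides pentobarbital for killing and a saline perfusion of the liver. The sources used here give no fasting period, and with 1 strain per group the strain background and the liver disease cannot be told apart. With 1 array per strain there is no replicate check, no SD and no p-value, and the values given are linear signal intensities and their FLS/DS ratio.

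Of the 41 genes, 36 had a probe set that the annotation used here assigns to 1 gene, out of 18194 genes named on the array, and 27 of the 36 were measured, meaning a signal above 500 in either pool. The limit was passed in both pools by 26 of the 27, and Phka2 passed it in the FLS pool alone. Gpi1, Eno1, Pfkfb1, Sord and Galk1 were not analysed here, because no probe set carries their name in that annotation. Dak is now named Tkfc and is given under that name. Each gene was read from the brightest of its probe sets. Hepatocyte markers, 7 of 9 of which were measured, had ratios from 1.01 to 1.05, and the Actb ratio was 0.867.

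The liver stores glucose as glycogen after a meal and releases glucose between meals from glycogen and by gluconeogenesis, the synthesis of glucose from lactate, amino acids and glycerol. Glycolysis and gluconeogenesis share their reversible enzymes and differ at a few one-way steps, where opposing enzymes face each other. Hepatic fructose metabolism enters glycolysis below its main control point, and the pentose phosphate pathway branches from glucose phosphate to supply NADPH and ribose.

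Most carbohydrate genes had similar signals in FLS and DS livers, and those that differed were mostly lower in FLS. Of the 27 measured genes, G6pc and Ppp1r3b, 2 genes or 7.41%, were lower in FLS livers by 2-fold or more, against 1.77% of all 5076 measured genes. None was at least 2-fold higher, against 2.29% of all measured genes. At a limit of 1.5-fold, 6 genes were lower (G6pc, Ppp1r3b, Pklr, Gbe1, Khk and Tkfc), or 22.2%, against 4.49% of all measured genes. One gene, Ppp1r3c, was at least 1.5-fold higher, or 3.70%, against 6.11%. The median log2 ratio was -0.11 over the 27 genes and 0.04 over all measured genes, and 17 of the 27 ratios lay below 1. After division by Actb these medians were 0.09 and 0.25, and 3 genes were at least 1.5-fold lower (Pklr, G6pc and Ppp1r3b), against 2.66% of all measured genes on that scale. Ppp1r3b, at a ratio of 0.499, lay just inside the 2-fold limit and Pklr, at 0.507, just outside it.

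**Figure D1:**
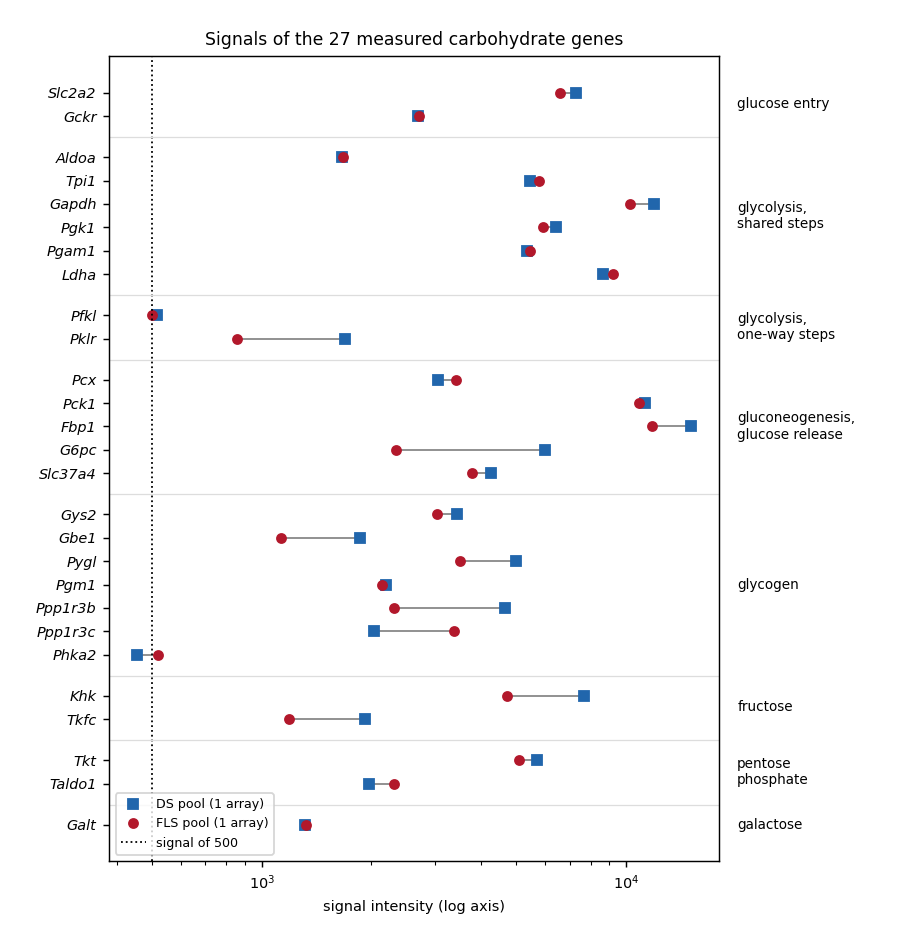
Signal intensity (log axis) of the 27 measured genes in FLS livers (circles) and DS livers (squares), from a single array per strain, grouped by pathway, with a dotted line at a signal of 500. The FLS circle lies well to the left of the DS square for G6pc (2336 and 5997), Ppp1r3b (2314 and 4641), Pklr, Gbe1, Khk and Tkfc, and to the right for Ppp1r3c (3379 and 2036).

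Glucose enters hepatocytes through the transporter Slc2a2, which read 6594 in FLS against 7279 in DS livers, a ratio of 0.906. Gckr, which encodes a regulatory protein of hepatic glucose metabolism, had signals of 2702 and 2682, a ratio of 1.01. Both genes thus differed little between the pools. The transporter Slc2a1 and the hexokinases Hk1 and Hk2, forms that are widespread outside hepatocytes, stayed under the limit of 500. Slc2a1, with 404 in FLS and 302 in DS livers, came nearest to that limit from below. Hk1 had 230 and 214, and Hk2 had 132 and 132, close to the median of all probe sets (120.3 in the FLS and 125.2 in the DS pool).

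The reversible enzymes that both directions of the pathway share had ratios from 0.860 to 1.07 over 6 measured genes, with a median log2 ratio of 0.02, and none reached 1.5-fold. Aldolase A (Aldoa) read 1673 in FLS against 1663 in DS livers. Triose phosphate isomerase (Tpi1) had 5773 and 5454, and phosphoglycerate mutase (Pgam1) 5457 and 5359. Phosphoglycerate kinase (Pgk1) had 5936 in FLS and 6427 in DS livers, a ratio of 0.924. These 4 enzymes lay within a narrow band around equal signals. Lactate dehydrogenase A (Ldha), which interconverts pyruvate and lactate, had 9228 and 8651, a ratio of 1.07. Its heart-type partner Ldhb stayed under 500, with 355 and 393. Gapdh, the glycolytic dehydrogenase often used as a reference transcript, had the lowest ratio of this group, 0.860, with 10252 in FLS and 11917 in DS livers.

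Gapdh and the pyruvate carboxylase gene Pcx also carry control probe sets against the 5′ end, the middle and the 3′ end of their transcripts. For Gapdh the ratio was 0.709 at the 5′ end, 0.762 in the middle and 0.860 at the 3′ end. For Pcx it was 0.849 at the 5′ end, 0.800 and 0.839 in the middle and 1.10 at the 3′ end, although the Pcx probe sets at the 5′ end (258 in FLS and 304 in DS livers) and at 0.800 in the middle (207 and 259) stayed under 500. Actb, which is no carbohydrate gene, had 0.682 at the 5′ end, 0.671 in the middle and 0.875 at the 3′ end on the same kind of probe set. In all 3 transcripts the FLS signal was thus lower relative to DS toward the 5′ end and in the middle than at the 3′ end. Control probe sets for the small-subunit ribosomal RNA did not share this order, with 1.13 at the 5′ end, 1.54 in the middle and 1.12 at the 3′ end, and those for Tfrc were under 100 in both pools. The positions of the other probe sets along their transcripts were not used, and the part of this gradient in other ratios was not tested.

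**Figure D2:**
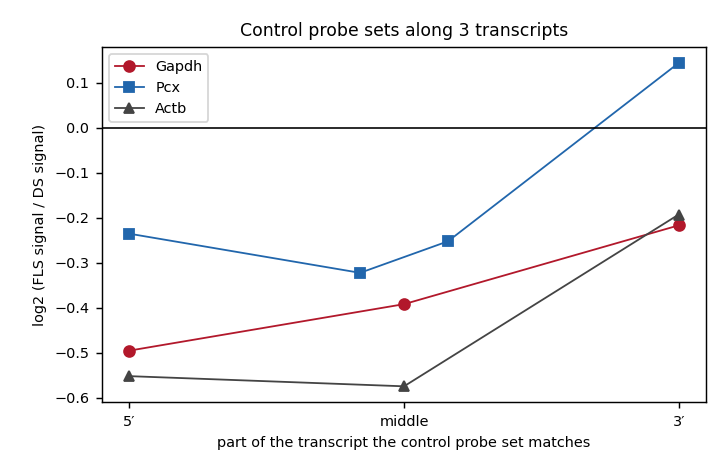
The log2 ratio of FLS to DS signal (vertical axis) for control probe sets that match the 5′ end, the middle or the 3′ end (horizontal axis) of Gapdh, Pcx and Actb, 1 array per strain. Each line is 1 gene, Pcx has 2 middle probe sets drawn side by side, and the value at the 3′ end is the highest in each gene, with ratios of 0.860, 1.10 and 0.875.

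Among the one-way steps of glycolysis, the pyruvate kinase gene Pklr differed most. Pklr encodes the liver and red cell enzyme that makes pyruvate from phosphoenolpyruvate. Its brightest probe set read 858 in FLS against 1691 in DS livers, so it was 1.97-fold lower in FLS livers, the 94th lowest ratio of 5076. Its other measured probe sets had 274 and 753, a ratio of 0.363, and 269 and 579, a ratio of 0.464. All 3 probe sets were thus lower in the FLS pool, with the FLS signals of the dimmer ones at about 270. The muscle and widespread form Pkm stayed under 500 and had equal signals (326 and 325). Phosphofructokinase (Pfkl), whose step commits sugar to glycolysis, had 502 and 516, a ratio of 0.971, close above the limit of 500. Pfkfb3, a kinase and phosphatase that sets the level of an activator of phosphofructokinase, had 148 and 255, both below 500, with a ratio of 0.581.

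Pklr has separate start sites for its red cell and liver transcripts, the red cell one upstream. The promoter of the downstream start is shown because carbohydrate feeding is known to act on this gene through a carbohydrate response element, a pair of E-box-like motifs. The window covers 250 bases before to 50 after the start in RefSeq (GRCm38.p6, chr3:89136373-89136672, plus strand), and capitals mark CACG and CGTG separated by 9 bases, a pattern searched after the sequence was seen.
Pklr: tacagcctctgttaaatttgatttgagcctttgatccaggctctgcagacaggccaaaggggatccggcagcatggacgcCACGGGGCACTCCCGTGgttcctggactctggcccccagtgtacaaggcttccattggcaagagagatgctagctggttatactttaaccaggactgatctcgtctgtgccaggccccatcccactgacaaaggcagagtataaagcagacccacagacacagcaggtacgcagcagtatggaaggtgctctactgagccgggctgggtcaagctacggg
The pattern begins at position -170 from the start, and 0.280% of all 32851 promoters of this length hold it. It was found in the promoter of 1 of 25 measured carbohydrate genes that had one, and the upstream window of Pklr held none of the motifs searched.

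Red cell genes were looked at because Pklr also serves red cells. Of 7 blood and muscle markers, 5 had a probe set and 1 was measured, Alas2, the red cell enzyme of heme synthesis, with 847 in FLS and 5423 in DS livers (6.40-fold lower in FLS). The summed signal of the 5 was 1287 in FLS and 5878 in DS livers. Hba-a1, a globin gene, was at 52.7 and 52.1, and Ckm, Acta1 and Mylpf were also under 500. A set of 9 more red cell genes, chosen after these values were seen, had signals from 47.8 to 313 in FLS and from 52.6 to 324 in DS livers, none of them measured, with ratios from 0.760 to 0.989. The part of red cell RNA in the Pklr ratio was not tested.

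Gluconeogenesis showed its largest difference at its last step. G6pc, the glucose-6-phosphatase catalytic subunit that frees glucose for release, read 2336 in FLS against 5997 in DS livers. It was 2.57-fold lower in FLS livers and had the 58th lowest ratio of 5076. Slc37a4, the transporter that brings glucose phosphate to this enzyme in the endoplasmic reticulum, had 3779 and 4256, a ratio of 0.888. The transporter passed no limit, and after division by Actb its ratio was 1.02. Fbp1, fructose bisphosphatase, had 11794 in FLS and 15097 in DS livers, a ratio of 0.781. Pcx, which makes oxaloacetate from pyruvate at the start of the pathway, had 3418 and 3046, a ratio of 1.12, although the median over all its probe sets was 0.849.

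Pck1, the cytosolic phosphoenolpyruvate carboxykinase, had 10862 in FLS and 11293 in DS livers, a ratio of 0.962. Its second measured probe set had 2188 and 3307, a ratio of 0.662, so the 2 probe sets of Pck1 did not give the same size of difference. The mitochondrial form Pck2 stayed under 500, with 127 and 135. Over the 5 measured genes of gluconeogenesis and glucose release, the median log2 ratio was -0.17, with 4 ratios below 1.

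The G6pc promoter is shown as that of the carbohydrate gene with the lowest ratio (GRCm38.p6, chr11:101367466-101367765, plus strand, 250 bases before to 50 after the RefSeq start).
G6pc: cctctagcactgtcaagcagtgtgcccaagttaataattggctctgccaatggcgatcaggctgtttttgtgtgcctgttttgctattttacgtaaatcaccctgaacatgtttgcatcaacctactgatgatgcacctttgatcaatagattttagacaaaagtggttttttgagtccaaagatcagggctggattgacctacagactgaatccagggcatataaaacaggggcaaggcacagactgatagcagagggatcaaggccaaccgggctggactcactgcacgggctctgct
Variant forms of motifs were not searched, so their presence in this window is not known from this search. No letters are in capitals, because no exact match to the motifs searched on both strands occurs in this window. They were the E-box CACGTG (7.15% of all promoters), the cyclic AMP response motif TGACGTCA (1.79%) and its short form TGACG (20.8%), the forkhead motif TGTTTAC (3.65%) and the hypoxia response core ACGTG (19.6%), which lies within CACGTG. Of the 25 measured genes with a promoter, 5 held CACGTG, 1 TGACGTCA, 7 TGACG, none TGTTTAC and 11 ACGTG. These counts are of genes with the motif in any of their promoters, and some genes have several. The percentages are of single promoters, so the 2 are not in the same unit.

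Textbook markers of hepatocyte zones were set beside these genes, as gluconeogenesis is known to be strongest in periportal hepatocytes. All 6 measured pericentral markers of 8 had ratios above 1, from 1.06 to 1.74, with Oat, Slc1a2, Rhbg and Cyp1a2 at 1.74, 1.72, 1.68 and 1.52, of which Slc1a2 passed 500 in the FLS pool alone. The summed signal of the 8 was 55117 in FLS and 41625 in DS livers. The 7 measured periportal markers of 9 had ratios from 0.907 to 1.82 and a median log2 ratio of 0.05, with sums of 63252 and 63042. No marker of either list was at 0, a level that no gene on the arrays had (lowest gene signal 39.0). The part of zonal composition in the G6pc ratio was not tested.

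**Figure D3:**
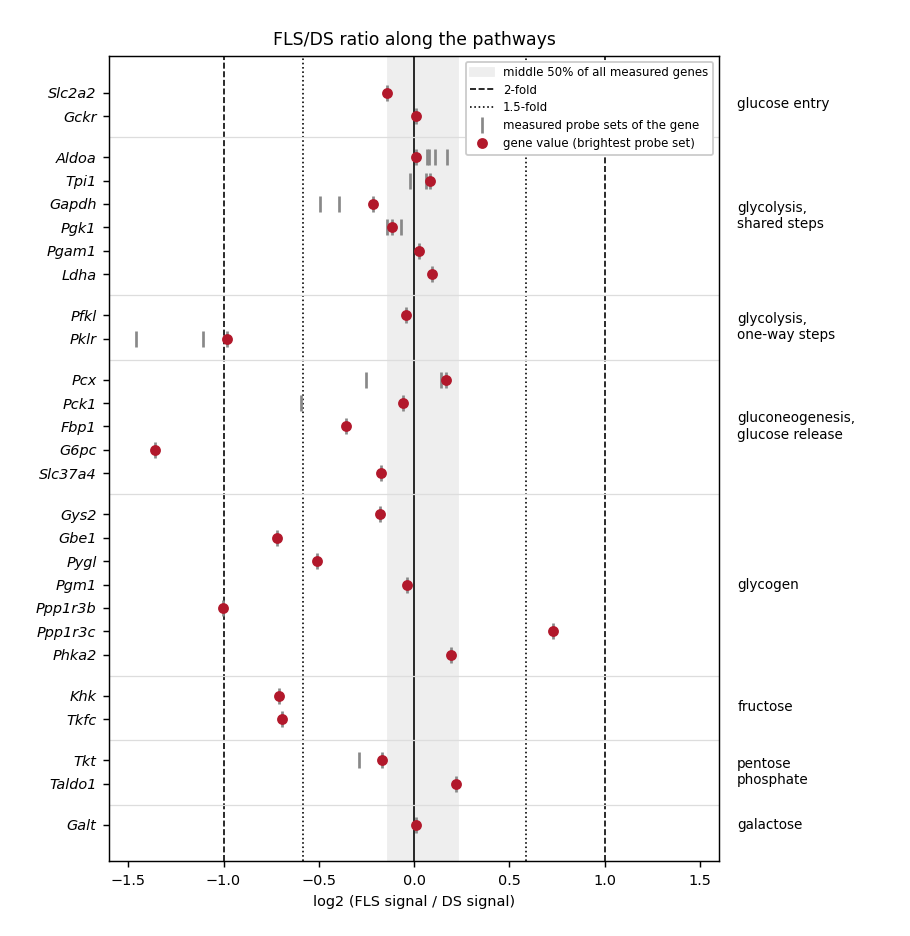
The log2 ratio of FLS to DS signal (horizontal axis) for each measured gene in pathway order, with circles for the gene value and ticks for every measured probe set of the gene, 1 array per strain. The grey band holds the middle 50% of all 5076 measured genes, dotted lines mark 1.5-fold and dashed lines 2-fold; the shared glycolytic steps lie near 0, G6pc at -1.36 lies farthest left and Ppp1r3c at 0.73 farthest right.

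Opposing enzymes were compared by the difference of their log2 ratios. For Pfkl against Fbp1 the difference was 0.31, which reflects ratios of 0.971 and 0.781, so the glycolytic gene was relatively higher in FLS livers. For Pklr against Pck1 it was -0.92 and for Pklr against Pcx -1.15, so the pyruvate kinase gene was relatively lower than both genes of the opposing steps. With genes read by the median of their probe sets, the difference from Pcx was -0.87. For Gys2 against Pygl the difference was 0.33, from ratios of 0.882 and 0.702, both below 1. At the pyruvate step the glycolytic gene thus had the lower ratio, and at the middle step the gluconeogenic one, by a smaller difference. The 0.31 of the middle step was not far above 0.22, the SD of log2 ratios among probe sets within a gene. It rested on Pfkl, with 502 in FLS and 516 in DS livers, close above the signal limit, and on the only probe set of Fbp1. With 1 array per strain, whether the pairs differ in direction was not tested.

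Glycogen genes held the widest range, from Ppp1r3b at 0.499 to Ppp1r3c at 1.66. Both encode subunits that bring protein phosphatase to glycogen, where it activates glycogen synthase, and Ppp1r3b is the form long known from liver. Ppp1r3b read 2314 in FLS against 4641 in DS livers, 2.01-fold lower in FLS livers, on its single probe set. Ppp1r3c had 3379 and 2036 on its brighter probe set and 209 and 186, a ratio of 1.12, on a second one below 500. The 2 subunits thus lay on opposite sides of 1. Glycogen synthase itself (Gys2) had 3037 and 3442, a ratio of 0.882.

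Gbe1, the branching enzyme that adds side chains to glycogen, had 1131 in FLS and 1866 in DS livers, 1.65-fold lower in FLS. Pygl, the liver phosphorylase that releases glucose phosphate from glycogen, had 3494 and 4979, a ratio of 0.702, and did not reach 1.5-fold. Of these enzymes, Gbe1 alone passed the 1.5-fold limit. After division by Actb Gbe1 was at 0.699 and no longer reached that limit, and Gys2 was at 1.02. Pgm1, the phosphoglucomutase that links glycogen to glucose phosphate, had 2138 and 2191, a ratio of 0.976, while Pgm2, with 204 and 161, stayed under 500. Phka2, the liver regulatory subunit of phosphorylase kinase, had 519 and 455, a ratio of 1.14, and the median over its probe sets was 0.948.

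The Ppp1r3c promoter is shown for the one gene at least 1.5-fold higher (GRCm38.p6, chr19:36736555-36736854, minus strand, 250 bases before to 50 after the RefSeq start), with the E-box CACGTG and ACGTG on either strand in capitals.
Ppp1r3c: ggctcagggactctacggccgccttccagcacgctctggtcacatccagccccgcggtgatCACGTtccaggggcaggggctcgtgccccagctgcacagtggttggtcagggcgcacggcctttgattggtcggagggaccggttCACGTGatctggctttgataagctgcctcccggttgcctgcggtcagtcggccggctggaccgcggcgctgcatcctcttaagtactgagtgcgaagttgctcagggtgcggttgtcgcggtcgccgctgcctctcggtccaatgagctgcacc
The E-box begins at position -104 from the start and a further ACGTG, on the opposite strand, at -189. Ppp1r3b had no matched promoter.

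Both fructose genes that could be read, Khk and Tkfc, had lower transcript signals in FLS livers. Khk, ketohexokinase, which phosphorylates fructose, read 4701 in FLS against 7676 in DS livers, 1.63-fold lower in FLS. Tkfc, which phosphorylates the glyceraldehyde that fructose breakdown yields, had 1190 and 1926, 1.62-fold lower. The 2 genes, which act at separate steps of fructose breakdown, had nearly the same ratio (0.612 and 0.618). Each was read from a single probe set, and after division by Actb neither reached 1.5-fold, with 0.706 for Khk and 0.713 for Tkfc. The promoter of Khk is shown because it holds an E-box, and was chosen after this was seen (GRCm38.p6, chr5:30921309-30921608, plus strand, 250 bases before to 50 after the RefSeq start), with CACGTG and the overlapping reverse of TGACG in capitals.
Khk: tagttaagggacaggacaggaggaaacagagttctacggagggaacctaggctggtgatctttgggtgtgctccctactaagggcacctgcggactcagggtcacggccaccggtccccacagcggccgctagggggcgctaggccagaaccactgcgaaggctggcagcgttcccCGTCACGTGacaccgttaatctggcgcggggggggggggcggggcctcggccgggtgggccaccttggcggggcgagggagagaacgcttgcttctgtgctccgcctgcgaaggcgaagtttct
The E-box begins at position -71 from the start. The Tkfc promoter held none of the motifs searched.

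The non-oxidative pentose phosphate genes and the galactose gene differed little. Transketolase (Tkt) had 5081 in FLS and 5701 in DS livers, a ratio of 0.891, and transaldolase (Taldo1) had 2301 and 1975, a ratio of 1.17. These enzymes, which exchange carbon units between pentoses and glycolytic sugars, lay on either side of 1. Rpia, ribose phosphate isomerase, stayed under 500 with 160 and 168. Galt, which passes galactose phosphate to the UDP sugar pool, had 1323 and 1312, a ratio of 1.01.

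Other genes of these pathways, 67 by name, were taken from a list that leaves out the 41. Of 60 with a probe set, 22 were measured, with 1 lower by 2-fold or more (1.77% of all measured genes) and 2 higher by 1.5-fold or more (6.11% of all), none of these by 2-fold. The limit of 500 was passed in the DS pool alone by 4 of the 22 and in the FLS pool alone by 2, and such genes enter through the pool where they are high. Of the 16 above 500 in both pools, 1 was at least 1.5-fold higher and none lower. These 16 centred on a log2 ratio of 0.003, and the 22 on -0.03. The lower one was Ppp1r3g, a further glycogen-targeting phosphatase subunit, with 174 in FLS, near the array median, and 527 in DS livers, a ratio of 0.330. The higher ones were Gyg, the glycogen primer glycogenin, with 527 and 310 (1.70), and Pgd, the phosphogluconate dehydrogenase of the NADPH-forming branch, with 1100 and 631 (1.74). H6pd, which runs the start of that branch in the endoplasmic reticulum, had 6155 and 4668, a ratio of 1.32. Glyctk, a glycerate kinase that also serves fructose breakdown, had 1731 and 1509, a ratio of 1.15. The glycogen-binding gene Stbd1 had 2208 and 1487, a ratio of 1.48. Ppp1r3g and Gyg each passed the limit only in the pool where they were higher.

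Among regulators of these genes, of which 21 of 29 were measured, log2 ratios centred on a median of 0.04. The widest were Trib3 at 4.13, the insulin-responsive lipogenic factor Srebf1 at 0.334, the repressor Nr0b2 at 1.97 and the kinase gene Sik1, a cyclic AMP target, at 0.544, of which Trib3 passed 500 in the FLS and Sik1 in the DS pool alone. Mlxipl, the factor that binds carbohydrate response elements, chosen once values were known, read 2261 in FLS against 2548 in DS livers, a ratio of 0.888. Of 8 measured genes known to be induced by insulin or feeding, 7 were at least 1.5-fold lower (4.49% of all measured genes), with a median log2 ratio of -1.48, Srebf1 being counted here too. Me1 and Elovl6 passed 500 in the DS pool alone, and without them 5 of 6 were at least 1.5-fold lower, with a median of -1.20. On the same list but under 500, Acacb had 440 in FLS and 257 in DS livers (1.71), and Pnpla3 had 96.9 and 122 (0.795). Of 6 measured genes known to be induced by fasting, which leave out G6pc and Pck1, 2 were at least 1.5-fold lower (Igfbp1 at 0.409 and Lpin1 at 0.642, against the same 4.49%) and none higher, with a median of -0.09. G6pc, a gene of the fasted state, and Pklr, a gene of the fed state, were both lower in the FLS pool. The 2 lists were not alike, with all 8 measured genes of the feeding list below 1. In the fasting list 3 ratios lay above 1 and 3 below. The feeding state of the mice was not tested.

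**Figure D4:**
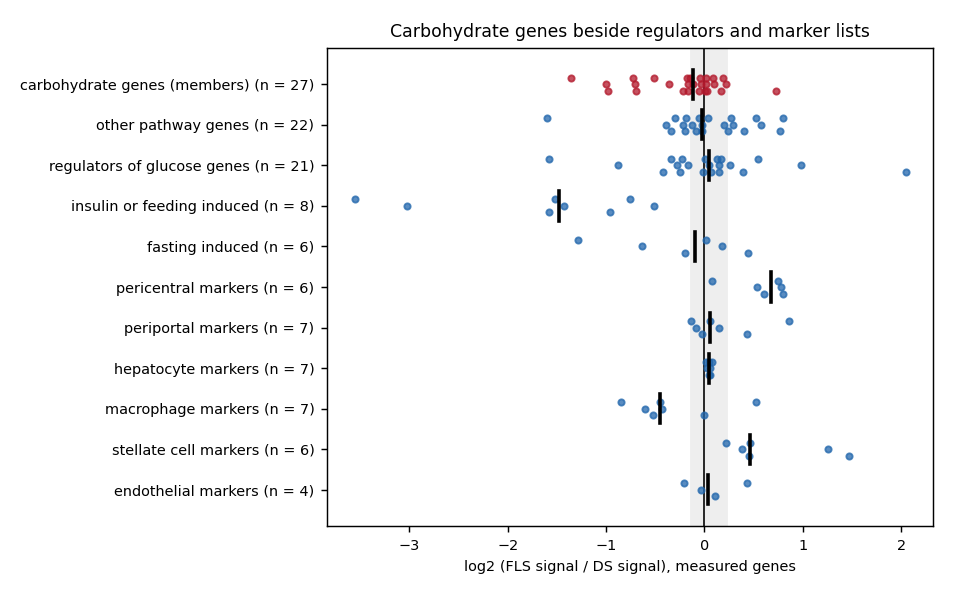
The log2 ratio of FLS to DS signal (horizontal axis) of every measured gene in the carbohydrate set (top row) and in 10 other lists, with a black bar at each median, 1 array per strain, vertical offsets only separating the points, and a grey band over the middle 50% of all measured genes. Carbohydrate genes have a median of -0.11, insulin or feeding induced genes of -1.48, pericentral markers of 0.68 and hepatocyte markers of 0.05.

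Markers of other liver cells were set beside these genes as well. The 7 measured macrophage markers of 10 had ratios from 0.554 (Vsig4) to 1.43 (Lyz2), with 6 below 1 and Csf1r at 0.993. Cd5l was at 0.657 and Mpeg1 at 0.693. Of the 7 markers, 2 or 28.6% were at least 1.5-fold lower, against 4.49% of all measured genes. The sum over all 10 was 6669 in FLS against 8351 in DS livers. Adgre1, Clec4f and Vsig4 passed 500 in the DS pool alone, and the 4 markers above 500 in both pools centred on a log2 ratio of -0.27, against -0.45 over the 7. The 6 measured stellate cell markers of 10 centred on a log2 ratio of 0.46, with sums of 16283 and 11239, and the 4 measured endothelial markers of 8 on 0.04. No marker of these lists was at 0, but no gene on the arrays was, the lowest gene signal being 39.0. None of the markers of neutrophils, of T and NK cells or of bile ducts passed the limit of 500. In bulk RNA, fewer cells of a type and less RNA per cell cannot be told apart, and the part of these cells in the ratios of carbohydrate genes was not tested.

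Probe sets of 1 gene could be compared in 8 of the 27 measured genes. Their log2 ratios spanned a median of 0.22, from 0.07 for Pgk1 and 0.10 for Tpi1 to 0.48 for Pklr and 0.54 for Pck1. In Pcx and Tpi1 the probe sets lay on both sides of 1, from 0.839 to 1.12 and from 0.987 to 1.06. Of the 6 genes at least 1.5-fold lower, 5 (G6pc, Ppp1r3b, Gbe1, Khk and Tkfc) rest on 1 probe set, and a sequence difference between the strains under it was not tested.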

How the data were processed

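Liver RNA of 3 mice was pooled per strain, and each pool was hybridized to 1 array, 2 in all. The authors summarized perfect-match probes with the MBEI (PM-only) algorithm and normalized the arrays, and the values they deposited are linear signal intensities. Of tools, the submitters' processing notes list affy. How arrays were scaled is not stated in the sources used here. The number of arrays limits the precision.

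From the deposited signals, FLS/DS ratios and their log2 were computed without offset or scaling. The platform annotation gave 1 symbol to 34958 of 45101 probe sets, several to 932 and none to 9211. Symbols were updated through Entrez numbers (34754 probe sets; RefSeq, GRCm38.p6), and a name that is a current symbol was never matched to another gene's synonym, which kept Pigq from standing in for Gpi1. The probe set brightest on average stood for its gene. A gene was measured above 500 in either pool, and limits were 2-fold and 1.5-fold.

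No test across genes was made. One planned comparison is not reported here. All 41 genes were reported, with up to 4 measured genes of largest absolute log2 ratio from each of 16 other lists. Csf1r, Adgre1, Clec4f, Acacb and Pnpla3 were named outside this rule, with their values known. Mlxipl, Mpc1, the promoter of Khk, the markers under 500 and the 9 added red cell genes were named after their values were seen. The genes, lists and tests were chosen with earlier results of these data known. Promoter sequences came from RefSeq and matched 34 of 36 genes, with 25 of 27 measured.

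Alternatives were quantile normalization, median centring, loess (fraction 0.4), division by Actb, an offset of 50, the median over probe sets, omission of _x_at and _s_at probe sets, signal limits of 200, 1000 and none, 500 in both pools, and 3-fold. A log2 value was taken to move beyond 0.22, the SD among measured probe sets within a gene, pooled over 1424 genes, and a count beyond 1.5 times. The calculations were tested on simulated data. The work ran in Python 3.11.15 with matplotlib 3.10.9, statsmodels 0.14.6, pandas 2.3.3 and numpy 2.4.6.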

Additional observations from a re-analysis of the deposited data

How the results depend on the processing

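No paired analysis was possible because each strain has 1 array. The number of genes at least 2-fold lower, 2 on the deposited scale, was 1 after median centring, after division by Actb and with an offset of 50, and 0 at 3-fold. G6pc was the gene left at 1. The shares of all measured genes were 1.65%, 1.42%, 1.67% and, at 3-fold, 0.768%, in the same order. The count was 3 (Pklr, G6pc and Ppp1r3b) after loess (1.85% of all measured genes) and with the median over probe sets (1.6%). After quantile normalization it was 2 (1.87%), with Pklr in place of Ppp1r3b. The number at least 1.5-fold lower, 6, was 3 after division by Actb, against 2.66% of all measured genes. The number at least 1.5-fold higher, 1, was 0 with the median over probe sets, against 4.35% of all, and Ppp1r3c had 1.36 there. The difference of log2 ratios of Pklr and Pcx, -1.15, was -0.87 with the median over probe sets, and the cause was not tested. No gene was at least 2-fold higher under any alternative tried, against 0.788% (at 3-fold) to 3.37% (after division by Actb) of all measured genes. The ratios of the 27 genes moved by less than the spread between probe sets in 185 of 188 recomputed values. The exceptions were Pcx, Phka2 and Ppp1r3c with the median over probe sets. Part of the 185 was fixed in advance. Median centring and division by Actb (0.21 in log2) shift all genes by 1 constant below that spread. A gene with 1 probe set cannot move with the median over probe sets or when other probe sets are left out. No gene with a ratio past 1.5-fold changed direction. Much of this was fixed in advance too, because the constant shifts are smaller than 1.5-fold and an added offset cannot reverse a ratio. Of the 6 lower genes, 5 have 1 probe set. Over these alternatives G6pc ranged from 0.387 to 0.449, Ppp1r3b from 0.495 to 0.575, Pklr from 0.464 to 0.585 and Khk from 0.610 to 0.706. Without probe sets ending in _x_at or _s_at, Aldoa had no value. Ratios of genes with a signal near the array median in 1 pool, such as Ppp1r3g, are limited by background.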

Other observations

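Some genes of these pathways differed while both signals stayed under 500. These 3 were chosen with their values known. Aldoc, an aldolase form known mainly from brain, read 415 in FLS against 140 in DS livers, a ratio of 2.95. Ppargc1a, a coactivator of gluconeogenic genes, had 219 and 112, a ratio of 1.95. Pdk4, the fasting-induced kinase that shuts pyruvate dehydrogenase, had 159 and 95.2, a ratio of 1.67. The DS signals of all 3 lay near the DS array median of 125.2.

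Transport of hexoses and of the end products of glycolysis differed by less than 1.5-fold in the genes that were measured. Slc16a1, a lactate and pyruvate carrier of the cell membrane, had 1488 in FLS and 1219 in DS livers, a ratio of 1.22, and Mpc1, a subunit of the mitochondrial pyruvate carrier, had 6510 and 6359, a ratio of 1.02. Slc2a8, an intracellular hexose transporter, had 689.7 and 480.8, a ratio of 1.43. G6pc3, the widespread form of the glucose phosphatase, had 418 and 547.5, a ratio of 0.763, and passed 500 in the DS pool alone.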
